A study of Ammopiptanthus mongolicus with 6 samples.

Results

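In the leaves of Ammopiptanthus mongolicus, 99 assembled transcripts (unigenes) stood at their drought maximum in the 24 h library and were at least 2 times lower in untreated leaves and in drought leaves taken earlier and later. They were selected on their read rates. A member had at least 30 reads at drought 24 h, and its reads over the library total there were at least 2 times those of the control, drought 1 h and drought 72 h, with counts under 3 set to 3. The 99 members are 0.146% of the 67955 unigenes and 0.609% of the 16257 that reached 30 reads at drought 24 h. The study sequenced leaf mesophyll RNA of wild-type plants as 6 libraries, listed here with their totals of uniquely assigned reads. These are an untreated control (4.67 M reads), drought at 1 h (4.31 M), 24 h (4.30 M) and 72 h (4.64 M), and cold at 1 h (4.51 M) and 72 h (4.30 M), where M stands for 1000000. The genotype label is wild type in all 6, no other allele or agent is named, and how drought and cold were applied, the plants' age and the number of plants behind a library are not stated there.

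Ammopiptanthus mongolicus is an evergreen broad-leaved desert shrub of the legume family. As background, leaves that lose water close their stomata and accumulate abscisic acid, a hormone that switches on genes for osmolyte synthesis, protective proteins, water channels and lipid remodelling. Plant drought programmes contain both transient genes, which return towards their starting level while the stress goes on, and sustained ones. Many genes of these programmes also respond to cold, which limits water uptake too. The files pair the unigenes with no gene name and no sequence, so members are ordered below by the shape of their response, no role is given to any identifier, and the mesophyll label could not be checked against marker genes.

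Each treatment and time is 1 library. The differences below therefore have no replicate check, and no p-value was computed. Ratios of read rates carry an exact 95% interval that covers counting error only, and they compare the libraries, not the conditions. Observed counts enter the ratio of an individual unigene as they are, and a count of 0 is set to a floor of 3 reads, which is 0.642 to 0.698 CPM (counts per 1000000 reads). For median ratios over the members or the 16257 unigenes, counts under 3 were set to 3, as in the selection. The same holds, calls aside, for counts of members by ratio. Higher or lower calls were made where the whole interval lay beyond 2-fold. In bulk RNA, a smaller share of cells that use a gene and less RNA per cell cannot be told apart. Of the 6, cold 72 h was the library that differed most in scale. Its median ratio to the control over the 16257 unigenes was 0.834, against 1.02 to 1.04 for the other stress libraries, and trimmed-mean (TMM) and median-of-ratios scaling moved its ratios to the control by 0.28 and 0.31 on the log2 scale.

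Together the members held 3988 reads in the control, 8275 at drought 1 h, 23827 at drought 24 h and 8128 at drought 72 h. In cold they held 5978 reads at 1 h and 8785 at 72 h. As shares of the library this was 0.0853% for the control, 0.192%, 0.554% and 0.175% for drought at 1, 24 and 72 h, and 0.133% and 0.204% in cold at 1 and 72 h. The drought maximum is set by the selection, but the size is not evenly spread over the members. The 5 with the most reads gave 41.4% of the members' reads at drought 24 h, 6 members had at least 1000 reads there, and 61 had fewer than 100.

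The median member had 73 reads at drought 24 h. It had 19 in the control, 24 at drought 1 h and 26 at drought 72 h, and in cold 26 at 1 h and 14 at 72 h. Relative to its own rate at drought 24 h, the median member stood at 21.1% in the control, with quartiles of 12.6% and 30.7%. At drought 1 h it stood at 34.4%, with quartiles of 24.0% and 40.1%, and at drought 72 h at 36.3%, with quartiles of 20.6% and 44.8%. The levels on both sides of the peak were therefore alike at the median, and both lay above the control. The selection required all 3 of these libraries to be low, so their medians are a description. The cold libraries, which had no part in the selection, stood at 31.3% of the drought 24 h rate at 1 h, with quartiles of 14.8% and 49.1%. At cold 72 h the median member stood at 19.6%, and the quartiles of 8.35% and 38.3% were farther apart on a ratio scale than those of any other library. At 94 of the 99 members drought 24 h was the highest of all 6 libraries, and the other 5 were higher at cold 72 h.

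**Figure D1:**
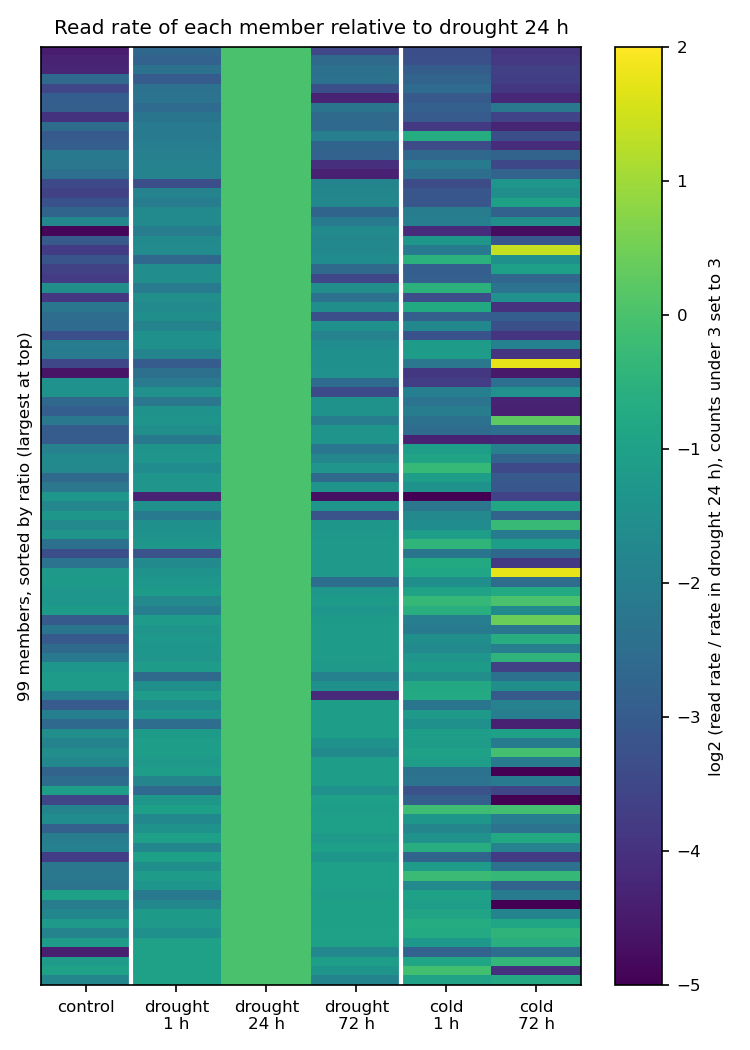
Each row is 1 of the 99 members and each column 1 library (control, drought at 1, 24 and 72 h, cold at 1 and 72 h), and colour gives log2 of the read rate over the rate at drought 24 h, with the lowest values drawn at the end of the scale. The drought columns beside 24 h are within 1.5-fold of each other in 61 rows. The cold 72 h column mixes rows as dark as any with 5 rows brighter than drought 24 h.

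The ratio of drought 24 h to the highest of the control, drought 1 h and drought 72 h had a median of 2.46 and a maximum of 6.21. It was at least 3 in 22 members, at least 4 in 11 and under 2.2 in 35. All 3 intervals lay above 1 in each of the 99, and all 3 lay above 2 in 25. Drought 24 h was called higher than the control at 71 members, higher than drought 1 h at 46 and higher than drought 72 h at 38. Of the 16257 unigenes with at least 30 reads at drought 24 h, the same calls were made at 2.01%, 0.646% and 0.406%, and since these contrasts chose the members, nothing is read from the difference. The library nearest to the peak was drought 72 h for 48 members, drought 1 h for 40 and the control for 11.

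The threshold runs through a dense part of the table. The 3 members closest inside it each had a ratio of 2.00. CL4858.Contig1_All had 20 control reads and 20, 40 and 20 after 1, 24 and 72 h of drought. Unigene31500_All had 26 control reads and 24, 48 and 20 in drought, and Unigene28642_All had 19 control reads and 30, 60 and 18 in drought. Just outside, CL3790.Contig2_All had a ratio of 1.99 with 24 control reads and 16, 61 and 33 in drought at 1, 24 and 72 h. Unigene23434_All followed at 1.99, with 76 control reads and 85, 169 and 86 in drought, and CL2657.Contig2_All at 1.98, with 25 control reads and 50, 99 and 43 in drought. Members and non-members near the threshold differ by less than their counting error.

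The steepest peak was that of Unigene46663_All (449 bases). It had 9 control reads, 29, 180 and 17 after 1, 24 and 72 h of drought, and 19 and 12 after 1 and 72 h of cold. Drought 24 h was 21.7-fold above the control (95% interval 11.2 to 48.3), 6.21-fold above drought 1 h (4.18 to 9.55) and 11.4-fold above drought 72 h (6.94 to 20.1). Both drought neighbours lay more than 4-fold under the peak over their whole intervals. Unigene45894_All (649 bases) had 18 control reads, 47, 326 and 59 after 1, 24 and 72 h of drought, and 35 and 23 after 1 and 72 h of cold. Its drought 24 h rate was 19.7-fold above the control (12.3 to 33.6) and 5.96-fold above drought 72 h (4.51 to 8.01).

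Unigene36501_All (524 bases) was the most abundant member of this steep kind per length. It stood at 21.6 RPKM (reads per 1000 bases of unigene and 1000000 reads) in the control, 77.6, 409.6 and 76.1 RPKM in drought at 1, 24 and 72 h, and 53.3 and 31.9 RPKM in cold at 1 and 72 h. Drought 24 h was 18.9-fold above the control (14.3 to 25.5), 5.28-fold above drought 1 h (4.49 to 6.24) and 5.38-fold above drought 72 h (4.59 to 6.34). The times before and after the peak did not differ beyond counting error. Unigene984_All (1798 bases) had a similar outline, with 20.1 RPKM without stress, 65.1, 313.9 and 52.7 RPKM in drought at 1, 24 and 72 h, and 39.3 and 26.2 RPKM in cold at 1 and 72 h. Its drought 24 h rate was 15.6-fold above the control (13.3 to 18.4). Here drought 72 h lay below drought 1 h beyond counting error, at a ratio of 0.81 (0.71 to 0.92).

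The last 3 of the 6 steepest were short and rested on fewer reads. Unigene6509_All (223 bases) had 7 control reads, 5, 39 and 8 after 1, 24 and 72 h of drought, and 6 and 0 after 1 and 72 h of cold. Unigene38085_All (247 bases) had 7 control reads, 14, 73 and 8 in drought, and 13 and 5 in cold. Unigene34444_All (285 bases) had 8 control reads, 11, 55 and 2 in drought, and 7 and 2 in cold. At drought 72 h the first pair had close to their control reads, and Unigene34444_All had fewer. For Unigene34444_All the drought 24 h rate was 29.7-fold above drought 72 h, where the 2 reads left a wide interval of 7.83 to 251.

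Some of the steep members kept a similar proportion to Unigene984_All over all 6 libraries, which was noticed after their values were seen. Unigene36501_All held 31.4% of the reads of Unigene984_All under control conditions, 34.7%, 38.0% and 42.0% after 1, 24 and 72 h of drought, and 39.5% and 35.5% after 1 and 72 h of cold. Unigene45894_All held 10.7% in the control, 9.32%, 13.4% and 13.4% in drought, and 11% and 11.3% in cold. For Unigene46663_All the share lay between 3.86% at drought 72 h and 7.42% at drought 24 h, and for Unigene38085_All between 1.82% at drought 72 h and 4.14% in the control, both wider in proportion. While the reads of Unigene984_All ranged from 169 to 2427 between libraries, the first pair of shares each stayed within a factor of 1.5. Whether such unigenes are pieces of one transcript, copies of a gene or separate genes cannot be told apart without their sequences.

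**Figure D2:**
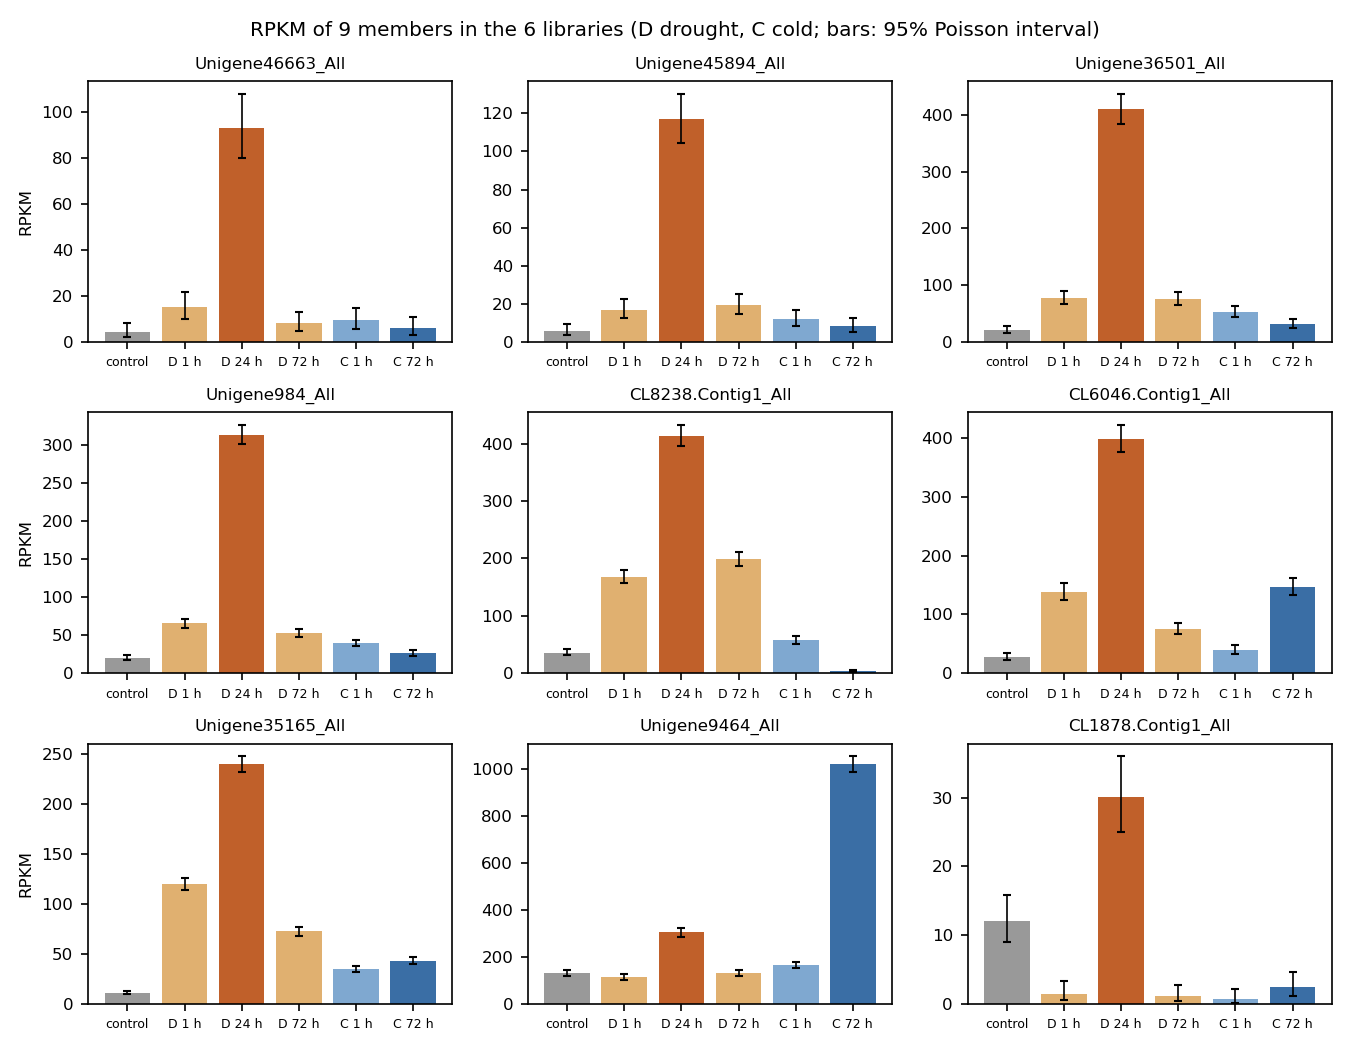
Bars give the RPKM of 9 members in the control, drought (D) at 1, 24 and 72 h and cold (C) at 1 and 72 h, and error bars the 95% Poisson interval of the reads. The 4 steepest well-read members, led by Unigene46663_All, drop back on both sides of drought 24 h, CL8238.Contig1_All and Unigene35165_All are also raised at the other drought times, Unigene9464_All is highest at cold 72 h, and CL1878.Contig1_All is high in only the control and drought 24 h.

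Per length, the leading members at drought 24 h were CL8238.Contig1_All (1105 bases) at 414.6 RPKM, Unigene36501_All at 409.6, CL6046.Contig1_All (657 bases) at 398.6, Unigene984_All at 313.9 and Unigene9464_All (773 bases) at 304.2 RPKM. These 5 do not share a profile. CL8238.Contig1_All was close to the selection limit, with 801, 1970 and 1018 reads in drought at 1, 24 and 72 h against 183 in the control. CL6046.Contig1_All had 83 control reads, 391, 1126 and 230 after 1, 24 and 72 h of drought, and 117 and 413 after 1 and 72 h of cold. Its drought 24 h rate was 14.7-fold above the control (11.8 to 18.7), and its drought 1 h rate was already 5.11-fold above it (4.03 to 6.56). Unigene9464_All had the highest control level of these 5, at 131.8 RPKM, and a drought peak of 304.2 RPKM that was 2.31-fold above it (2.07 to 2.58).

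A minority of the members was already or still called higher than the control at the other drought times. Drought 1 h was called higher than the control at 12 of the 99 members, against 0.695% of the 16257 unigenes, and drought 72 h at 15, against 1.01%. The control was also a library that the selection required to be low, so these shares are a description. Calls aside, 70 members, those called included, had a higher rate than the control at both times and 11 had a lower rate at both. Unigene35165_All (3231 bases) led this kind, with 170 control reads, 1665, 3332 and 1089 after 1, 24 and 72 h of drought, and 502 and 597 after 1 and 72 h of cold. It was 10.6-fold above the control at drought 1 h (9.07 to 12.5), 21.3-fold at drought 24 h (18.2 to 25) and 6.45-fold at drought 72 h (5.48 to 7.63). It was called higher than the control in all 5 stress libraries.

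At 61 members the rates at drought 72 h and drought 1 h were within 1.5-fold of each other. Drought 72 h was at least 1.5-fold higher at 17 and at least 1.5-fold lower at 21. It was called higher at none (45 of the 16257 unigenes were) and lower at 3, or 3.03%, against 0.837%. The 3 are named after their values were seen. CL3276.Contig2_All (450 bases) had 31 control reads and 134, 389 and 37 after 1, 24 and 72 h of drought, so drought 72 h was 3.90-fold below drought 1 h (2.69 to 5.78). CL8241.Contig2_All (2073 bases) had 19 control reads and 26, 95 and 5 in drought, and Unigene36463_All (523 bases) had 18 control reads and 30, 65 and 4 in drought. The first returned to near its control count, and the other 2 had fewer reads at drought 72 h than in the control.

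Drought 1 h lay under the control at 16 members, and at 1 of them this was a call (1.01% of the 99, against 0.221% of the 16257 unigenes). CL1878.Contig1_All (925 bases) had 52 control reads, 6, 120 and 5 after 1, 24 and 72 h of drought, and 3 and 10 after 1 and 72 h of cold. Its drought 1 h rate was 7.99-fold below the control (3.43 to 22.7), its drought 24 h rate 2.51-fold above it (1.80 to 3.54) and its drought 72 h rate 10.3-fold below it (4.15 to 33.1). It was the 1 member called lower than the control at drought 1 h and also the 1 called lower at drought 72 h (1.01%, against 0.732%). The peak of this contig is thus a return above the control between times that lay well under it, and both cold libraries were low too. The other contig of its cluster, CL1878.Contig2_All, had 31 control reads, 3, 75 and 54 in drought, and 9 and 58 in cold. Summed, CL1878 had 83 control reads, 9, 195 and 59 in drought, and 12 and 68 in cold. The deep falls at drought 72 h and cold 72 h were therefore seen in the member contig, not in the sum. Unigene29919_All (461 bases) had 66 control reads, 21, 127 and 50 in drought, and 14 and 11 in cold, with a drought 1 h rate 2.90-fold below the control (1.75 to 4.98). Unigene25207_All, with 21 control reads and 7, 42 and 12 in drought, and CL114.Contig2_All, with 26 control reads and 11, 49 and 25 in drought, also had drought 1 h intervals under 1, at ratios of 0.362 (0.130 to 0.883) and 0.459 (0.205 to 0.962). The upper bound of Unigene9464_All was just under 1, at 0.989. The time of day at sampling is not stated in the labels, and its part in these values was not tested.

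Cold was compared with the control in the same way. The control was required to be low by the selection and is shared with drought, so a ratio of cold to control is not independent of how the members were chosen. At cold 1 h, 4 members were called higher than the control (4.04%, against 0.707% of the 16257 unigenes) and 3 lower (3.03%, against 0.394%). The median ratio was 1.62 over the members and 1.04 over the 16257. At cold 72 h, 14 were called higher (14.1%, against 3.76%) and 7 lower (7.07%, against 5.97%), with median ratios of 0.988 and 0.834. With TMM scaling the split at cold 72 h was 20 higher and 6 lower, against 5.15% and 3.65% of the 16257, and with median-of-ratios it was 20 and 4, against 5.36% and 3.46%. The members' share called lower was 6.06% under TMM and 4.04% under median-of-ratios.

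The members higher at cold 1 h were CL3327.Contig2_All, CL4664.Contig2_All, Unigene24914_All and Unigene35165_All. CL3327.Contig2_All (719 bases) had 37 control reads, 50, 308 and 111 after 1, 24 and 72 h of drought, and 225 and 109 after 1 and 72 h of cold. Cold 1 h was 6.30-fold above the control (4.43 to 9.18), while drought 1 h was near it. Its reads at cold 1 h covered 271 of the 719 bases. Summed over both contigs, the cluster CL3327 had 1569 control reads and 1907 at cold 1 h, and the member held 2.36% and 11.8% of them. CL4664.Contig2_All (1726 bases) had 113 control reads, 225, 550 and 252 in drought, and 433 and 255 in cold, a ratio of 3.97 at cold 1 h (3.22 to 4.93). Unigene24914_All (1572 bases) was 3.19-fold (2.32 to 4.45) and Unigene35165_All 3.06-fold (2.57 to 3.66) above the control there. At the first pair cold 1 h lay above cold 72 h, and at the second pair it did not.

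The 3 lower at cold 1 h were CL1878.Contig1_All, Unigene29919_All and Unigene43665_All. CL1878.Contig1_All, with 3 reads against 52, was 16.7-fold below the control (5.42 to 83.8), and Unigene29919_All, with 14 reads against 66, was 4.55-fold below it (2.53 to 8.77). Unigene43665_All (230 bases) had 15 control reads, 9, 38 and 7 after 1, 24 and 72 h of drought, and 0 and 7 after 1 and 72 h of cold. With no read at cold 1 h it has only a lower 95% bound there, 3.46-fold below the control.

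At cold 72 h the members spread widely, and 3 were called higher than even drought 24 h, or 3.03%, against 3.36% of the 16257 unigenes. Unigene664_All (701 bases) had 13 control reads, 53, 164 and 53 after 1, 24 and 72 h of drought, and 40 and 426 after 1 and 72 h of cold. Cold 72 h was 35.6-fold above the control (20.6 to 67.4) and 2.60-fold above drought 24 h (2.16 to 3.13). Unigene9464_All had 476 control reads, 378, 1011 and 467 in drought, and 577 and 3392 in cold, so that cold 72 h was 7.74-fold above the control (7.03 to 8.54) and 3.35-fold above drought 24 h (3.12 to 3.60). CL909.Contig2_All (1224 bases) had 1 read in the control, 4, 31 and 12 in drought, and 7 and 104 in cold. Its ratio of cold 72 h to control was 113, with an interval of 19.8 to 4505 that the 1 control read leaves wide. The reads of CL909.Contig2_All covered only 49 bases in the control and 94 bases at cold 72 h.

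The other members called higher at cold 72 h included CL57.Contig7_All (1915 bases), 10.8-fold above the control (7.0 to 17.3), and the pair CL6046.Contig1_All and CL6046.Contig2_All. The contigs of that pair were 5.41-fold (4.26 to 6.93) and 5.98-fold (3.59 to 10.5) above it. Unigene13412_All (632 bases) had 54 control reads, 115, 469 and 153 after 1, 24 and 72 h of drought, and 56 and 230 after 1 and 72 h of cold, a ratio of 4.63 at cold 72 h (3.43 to 6.34). Its cold 1 h count was near that of the control.

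At 4 members, CL8238.Contig1_All, CL4928.Contig4_All, Unigene37694_All and Unigene994_All, cold 72 h was called lower than the control while drought 24 h was called higher. Over the 16257 unigenes both calls were made at 23, or 0.141%, which is 7.06% of the 326 called higher at drought 24 h. The 4 stand among the 71 members called higher there, so the pair of calls was not more frequent among these members than among the 326. Under median-of-ratios scaling 3 of the 4 were left. Unigene37694_All (786 bases) had 145 control reads, 437, 916 and 466 after 1, 24 and 72 h of drought, and 185 and 26 after 1 and 72 h of cold. Every drought library lay above the control, while cold 72 h was 5.13-fold below it (3.37 to 8.12). CL4928.Contig4_All (1499 bases) had 34 control reads, 38, 127 and 67 in drought, and 63 and 1 in cold, 31.3-fold below the control at cold 72 h with an interval of 5.25 to 1272. Unigene994_All (1153 bases) had 190 control reads, 236, 1012 and 178 in drought, and 76 and 52 in cold, 3.36-fold below the control at cold 72 h (2.46 to 4.66). CL8238.Contig1_All had 283 reads at cold 1 h and 16 at cold 72 h, and this last value was 10.5-fold below the control (6.31 to 18.8) and 123-fold below drought 24 h (75.7 to 216). The other 3 lower at cold 72 h were CL1878.Contig1_All, Unigene29919_All and Unigene31500_All. Under TMM scaling the call of CL1878.Contig1_All was lost, and under median-of-ratios those of CL1878.Contig1_All, Unigene31500_All and Unigene994_All.

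**Figure D3:**
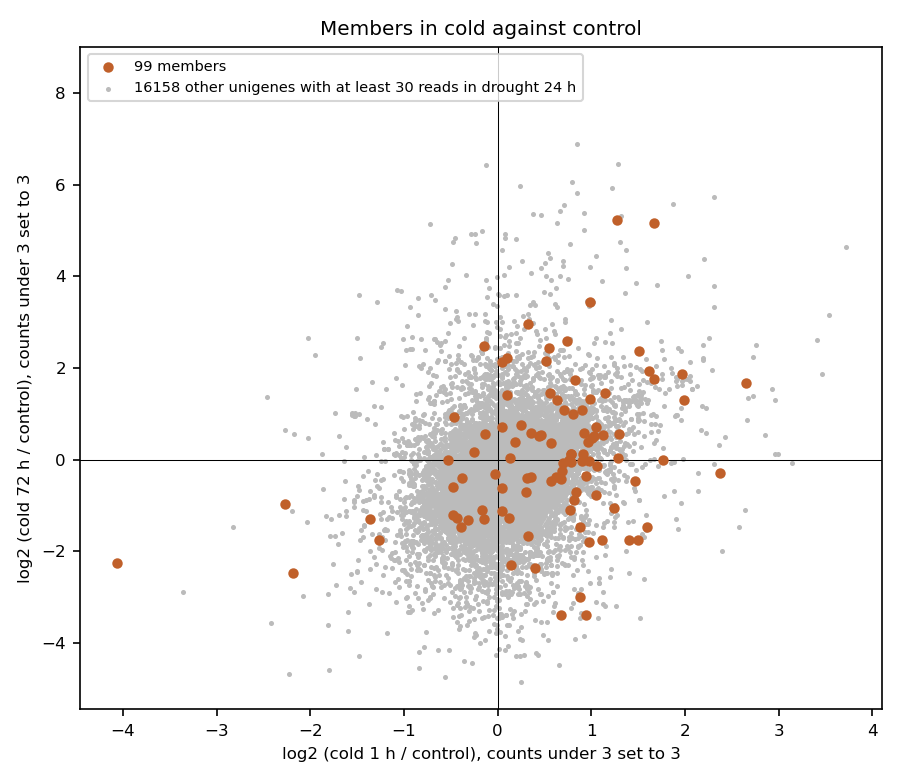
Each point is a unigene with at least 30 reads at drought 24 h, placed by log2 of cold 1 h over control (x axis) and of cold 72 h over control (y axis), with the 99 members in orange and the others in grey, library totals as the scale and counts under 3 set to 3. Members lie mostly to the right of 0 on the x axis (80 of 99) and on both sides of 0 on the y axis (47 above, 52 below). Such counts were not made for the others, but median ratios over all 16257 were 1.04 at cold 1 h and 0.834 at cold 72 h. The selection required a low control, the denominator on both axes.

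Cold 72 h against cold 1 h involves neither the control nor any library of the selection. Here 8 members were called higher (8.08%, against 3.24% of the 16257 unigenes) and 11 lower (11.1%, against 6.14%), with a median ratio of 0.629 over the members and 0.796 over the 16257. With TMM or median-of-ratios scaling 10 were higher and 8 lower, against 4.87% and 5.03% higher and 3.40% and 3.25% lower of the 16257 under the first and the second of these, so which direction is more frequent depends on the scaling. The firmest higher members were again Unigene664_All, at 11.2-fold (8.07 to 15.9), CL909.Contig2_All, at 15.6-fold (7.30 to 39.7), and Unigene9464_All, at 6.17-fold (5.64 to 6.74). The firmest lower ones were CL8238.Contig1_All, 16.9-fold lower (10.2 to 29.9), CL4928.Contig4_All, whose 1 read against 63 gave 60.1-fold with an interval of 10.4 to 2410, and Unigene31500_All, whose 3 reads against 46 gave 14.6-fold (4.70 to 73.5). Against drought 24 h, cold 1 h was called lower at 51 members (0.972% of the 16257) and cold 72 h at 65 (7.94%), which the selection of a drought 24 h peak favours.

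The members were shorter than other unigenes with as many reads. Their median length was 587 bases, with a range of 200 to 3231, against 964 bases for the other unigenes with at least 30 reads at drought 24 h. Of the members 42.4% were under 500 bases, against 16% of the others. Median reads at drought 24 h were 73 and 85, so the median level per length was 36.5 RPKM in members and 22.9 RPKM in the others. Contigs of assembled clusters made up 37.4% of the members and 32.1% of the others.

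The reads of some members fell on a small part of the unigene. The deposited covered share at drought 24 h had a median of 81.8% in members and 86.3% in the others. It was set against the share that the same number of reads would cover if they fell evenly, each read covering 49 bases as in unigenes with 1 read. Observed over expected coverage had a median of 0.838 in members and 0.892 in the others, and it was under 50% in 24 of the 99 members, or 24.2%, against 8.76% of the others. Of these 24, 20 were contigs of clusters and 4 were not. The median ratio of drought 24 h to control was 7.46 in the 24 and 4.54 in the other members.

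Coverage was lowest against expectation in CL1653.Contig9_All (920 bases). It had 11 control reads, 27, 84 and 27 after 1, 24 and 72 h of drought, and 36 and 10 after 1 and 72 h of cold, and these covered only 67 to 71 bases in every library. An 8.30-fold difference between drought 24 h and control (4.41 to 17.3) was thus counted on a stretch little longer than 1 read. CL3447.Contig1_All (2776 bases) had 16 control reads, 40, 114 and 47 in drought, and 21 and 21 in cold, over 162 to 227 bases. CL2710.Contig3_All (1026 bases) had 10 control reads, 59, 121 and 53 in drought, and 19 and 9 in cold, over 75 to 93 bases. The number of covered bases changed far less than the reads, as it also did in Unigene35165_All, where 170 to 3332 reads covered 891 to 904 of 3231 bases. RPKM of such members averages over bases without reads, and the part of shared sequence or of assembly in their values was not tested. The steep members differed in coverage at drought 24 h, with 96.9% of Unigene36501_All and 92.5% of Unigene984_All under reads, but 58.1% of Unigene46663_All and 59.2% of Unigene45894_All.

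**Figure D4:**
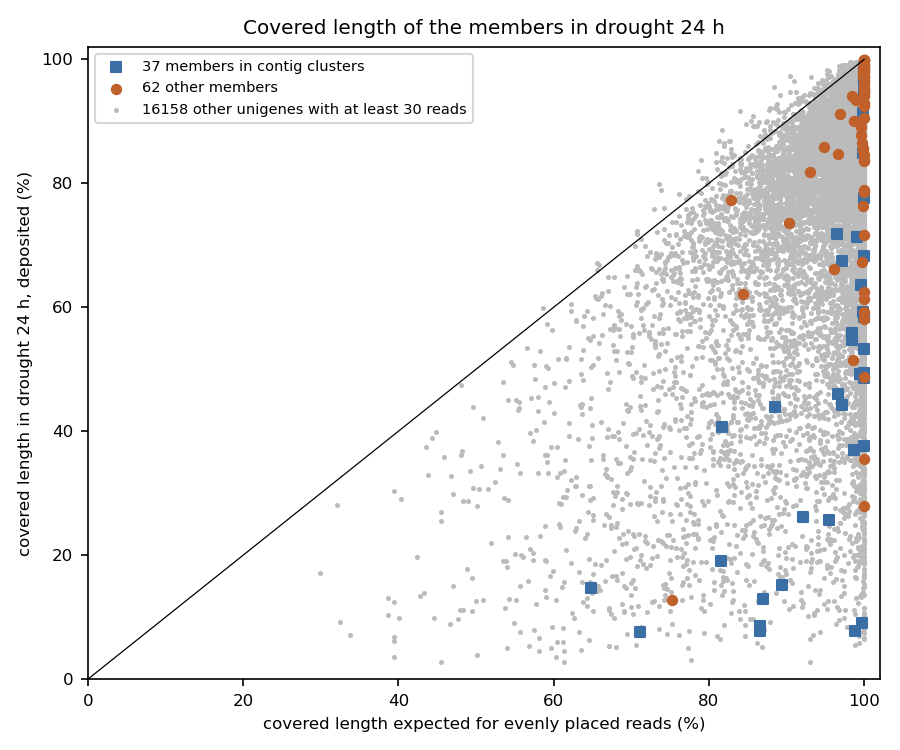
For drought 24 h, the x axis gives the percent of a unigene expected under evenly placed reads of 49 bases and the y axis the deposited percent covered, with members in contig clusters as blue squares, other members as orange points and other unigenes with at least 30 reads in grey. The line marks equal values, and the 24 members under 50% of expectation, 20 of them squares, lie in the lower right.

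The 37 members that are contigs came from 35 clusters, groups of contigs that the assembly identifiers put together. Such contigs may be close copies or splice forms, between which unique assignment divides the reads, so the value of any 1 contig is uncertain. Only CL6046 and CL899 held 2 members each. CL6046.Contig2_All (357 bases) had 18 control reads, 69, 206 and 37 after 1, 24 and 72 h of drought, and 29 and 99 after 1 and 72 h of cold. Its reads were 16.1% to 24.8% of those of CL6046.Contig1_All across the 6 libraries, so both contigs went up and down together. CL899.Contig1_All (1489 bases) had 93 control reads, 174, 435 and 229 in drought, and 143 and 64 in cold. CL899.Contig2_All (1198 bases) had 11 control reads, 11, 62 and 31 in drought, and 23 and 3 in cold.

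The sister contigs, those of the 35 clusters that are not members, were not themselves chosen by the rule. Their clusters were, through a member picked on the same drought 24 h and control libraries. The shares below are therefore not independent of the selection and are a description. Of 63 sisters, 54 had a read at drought 24 h or in the control. Drought 24 h was called higher than the control at 5 of them, or 9.26%, against 0.604% of 18034 contigs of clusters without a member, and lower at none. The 5 were CL6046.Contig4_All, with 142 reads at drought 24 h against 12 in the control, CL6046.Contig3_All, with 16 against 1, CL2657.Contig2_All, with 99 against 25, CL3447.Contig2_All, with 28 against 5, and CL8806.Contig3_All, with 103 against 34. They are named after their values were seen, and CL2657.Contig2_All was just outside the selection limit, at a ratio of 1.98. All contigs of CL6046 were therefore called higher at drought 24 h than in the control, and its summed reads were 1490 and 114. CL6046.Contig3_All did not peak there, with 13, 16 and 20 reads in drought at 1, 24 and 72 h, and 56 at cold 72 h.

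In other clusters the member's peak was not seen in the sum. In 29 clusters sisters had reads at drought 24 h, and summed over all contigs 13 of these still had a drought 24 h rate at least 2 times that of the control, drought 1 h and drought 72 h, while in 12 the ratio was under 1.5. The members' share of the cluster's reads was larger at drought 24 h than in the control in 25 of the 29, and larger by at least 20 percentage points in 7, which the selection favours. In CL3276 the member contig held 39.6% of the reads at drought 24 h and 2.40% in the control. Its sister CL3276.Contig1_All (1294 bases) had 593 reads at drought 24 h and 1262 in the control, 1015 at drought 1 h and 1309 at drought 72 h, so it was lowest where the member was highest. The cluster as a whole had 982 reads at drought 24 h and 1293 in the control. In CL3327 the member held 15.6% of the reads at drought 24 h and 2.36% in the control, while its sister CL3327.Contig1_All had 1667 reads at drought 24 h and 1532 in the control.

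**Figure D5:**
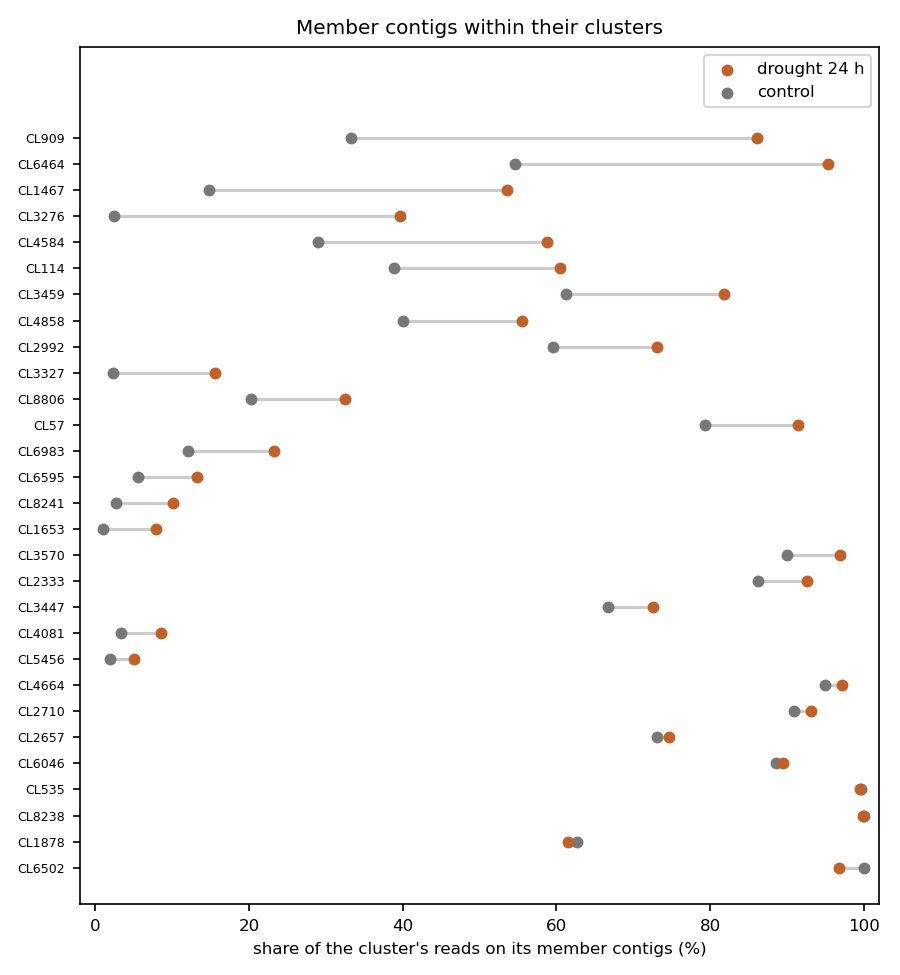
Rows are the 29 clusters in which sister contigs had reads at drought 24 h, and the x axis is the percent of the cluster's reads on its member contigs at drought 24 h (orange) and in the control (grey). Shares were larger at drought 24 h in 25 clusters, and the widest gaps, at the top, include CL3276 at 39.6% in drought 24 h and 2.40% in the control.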

How the data were processed

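The authors deposited, per the file headers, 1 table for each library, which holds for every unigene a count of the reads assigned to it alone, its length, the percent of it covered, and RPKM. The submitters' processing notes name Bowtie 0.12.2. The assembler, its input and the use of strand are not stated in them, the labels or the headers. Counts summed exactly to the total in each header. Where a table lists no entry for a unigene, 0 reads were entered.

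Groups follow the labels' treatment and time, with 1 library each, although the design text speaks of triplicates. The members, comparisons and alternatives were chosen with earlier results of these data known. Every ratio was computed across all unigenes with an exact Clopper-Pearson 95% interval, conditional on both counts (scipy 1.17.1), and read on its library totals. Reads that carry no molecular identifier may be copies of one another, so intervals and floors cover counting error only. A share of members called has as its background the 16257 unigenes with at least 30 reads at drought 24 h, since all members pass that limit.

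Members named are the 6 with the largest ratio, the 5 highest by RPKM at drought 24 h, the 3 firmest above and below for cold 72 h and cold 1 h against control and for cold 72 h against cold 1 h, the 3 with the lowest coverage against expectation, those of clusters with 2 members, and the 3 closest to the threshold on each side. Other names are examples chosen after their values were seen. The rule and the interval were tested on simulated data. Alternatives used edgeR 4.0.16 (TMM, upper quartile) and DESeq2 1.42.0 (median of ratios) for scaling only. The software was Python 3.11.15 (pandas 2.3.3, numpy 2.4.6, matplotlib 3.10.9) and R 4.3.3. Gene lists and cell type markers could not be applied, because the unigenes carry no names.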

Additional observations from a re-analysis of the deposited data

Results flagged for a closer look

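At 4 members the direction against the control was opposite in drought and cold, with 1 library each, so the difference was not tested. Drought 24 h was higher by selection. The same pair of calls was made at 0.141% of the 16257 unigenes, and at 7.06% of the 326 called higher at drought 24 h. The 4 are among 71 members with that drought call, so the pair was not more frequent in members. CL4928.Contig4_All had a ratio of cold 72 h to control of 0.0319 and a ratio of drought 24 h to control of 4.06. For CL8238.Contig1_All the cold 72 h ratio was 0.0950, and the drought ratios were 4.75, 11.7 and 5.60 at 1, 24 and 72 h. Unigene37694_All stood at 0.195 in cold 72 h and at 3.27, 6.87 and 3.24 in drought, so at 72 h both stresses can be set side by side. Unigene994_All had 0.297 in cold 72 h and 5.79 at drought 24 h, and its cold 72 h call was lost under median-of-ratios (0.368, interval 0.265 to 0.503).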

How the results depend on the processing

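No paired analysis was possible because each treatment and time is 1 library, and for the same reason no library could be left out. The number of members was 97 to 111 under the other 4 scalings, 99 with a floor of 1 or 10 reads, 85 with RPKM plus 1 and 83 with the contigs of a cluster summed. It was 155 with at least 20 reads, 38 with at least 100, 385 at 1.5 times, 22 at 3 times, 25 with all 3 intervals above 2 and 57 with at least 500 bases. When a call needed a ratio of at least 2 and an interval clear of 1, the shares called higher than the control became 22.2% at cold 1 h, 25.3% at cold 72 h, 28.3% at drought 1 h and 37.4% at drought 72 h, against 3.01%, 6.34%, 2.92% and 3.48% of the 16257 unigenes. The shares called lower were 5.05% and 17.2% at cold 1 h and 72 h, against 1.22% and 16.3%, close to each other at cold 72 h. Cold 72 h against cold 1 h then gave 13.1% higher and 28.3% lower, against 5.09% and 17.6%, and sister contigs 18.5%. With intervals at an error of 0.1% the shares were 1.01% lower at cold 1 h, against 0.221% of the 16257, and 9.09% higher at cold 72 h, against 2.86%. Cold 72 h was lower than cold 1 h at 4.04%, close to the 3.17% of the 16257. Drought 72 h was higher at 5.05%, against 0.492%, and the sisters gave 3.70%. Members with at least 100 reads gave 10.5% higher and 5.26% lower at cold 1 h, 26.3% higher and 15.8% lower at cold 72 h, 15.8% higher at cold 72 h than cold 1 h, 28.9% at drought 1 h and 34.2% at drought 72 h. Sisters with at least 100 reads gave 18.2%. At cold 1 h, the shares among members with 500 bases or more were 7.02% higher and 1.75% lower. No background share was computed for these limits of reads and length, so nothing is read from them about the members. Median-of-ratios gave 4.04% lower at cold 72 h, against 3.46% of the 16257. The other 37 of 62 shares stayed within 1.5 times and within the binomial interval of the reported one. That interval treats unigenes as independent although all share the same libraries. It served only as a limit for sorting the shares and measures no spread between plants or libraries. The cause of these shifts was not tested. Of 174 ratios of 29 named members under TMM and median-of-ratios, 169 kept their call. CL4664.Contig2_All was called higher at cold 72 h under both (2.98 and 3.03), CL1878.Contig1_All lost its lower call under both (0.254 and 0.259) and Unigene31500_All under median-of-ratios (0.155). Outside these 29, Unigene994_All lost its lower call at cold 72 h under median-of-ratios (0.368). With 1 library per group the spread between plants is unknown, and 61 of the 99 members rest on fewer than 100 reads at drought 24 h.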

Other observations

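Of the members, 7 have an identifier number within 2 of another member's, which was noticed after their values were seen. What the order of numbers reflects is not stated. Unigene34441_All had 23 control reads, 42, 119 and 13 after 1, 24 and 72 h of drought, and 17 and 16 after 1 and 72 h of cold, and Unigene34442_All had 21, then 24, 90 and 6, then 22 and 8. With Unigene34444_All, described above, all 3 were under their control counts at drought 72 h, while Unigene34443_All between them had 4 to 9 reads in every library. Unigene32122_All had 48 control reads, 106, 263 and 128 in drought, and 88 and 66 in cold, and Unigene32123_All had 28, then 70, 185 and 96, then 55 and 37. Unigene35166_All, next to Unigene35165_All, had 0 control reads, 1, 30 and 9 in drought, and 3 and 12 in cold. With no control read, drought 24 h has only a lower 95% bound there, 8.31-fold above the control.

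A pair of short members, Unigene43061_All (254 bases) and Unigene22657_All (273 bases), had similar reads in every library. The first had 2 control reads, 20, 82 and 28 in drought at 1, 24 and 72 h, and 5 and 0 in cold at 1 and 72 h. The second had 2 control reads, 13, 69 and 27 in drought, and 5 and 0 in cold. Cold at both times was called lower than drought 24 h in both members. Against the 2 control reads neither cold library was called higher or lower.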
